A study of Mus musculus with 146 samples.

Results

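Hypothalamus and prefrontal cortex were compared within the same mice, using the 36 libraries of the 18 Air mice with a library of both regions, out of 146 libraries in the series. The members were chosen by their labels alone: the air-exposed group, a hypothalamus library and a prefrontal cortex library carrying the same mouse number. One further Air prefrontal cortex library had no hypothalamus partner and entered only an alternative fit. The mice were C57BL/6J, 8 female and 10 male, and their age was not stated in the labels.

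The study set mice made dependent by chronic intermittent exposure to ethanol vapor (CIE) against mice kept in air chambers, and profiled whole blood, amygdala, hypothalamus and prefrontal cortex. The Air mice are labelled non_dependent. They were not free of ethanol: like the CIE mice they drank 15% ethanol in 2-hour sessions, and they received pyrazole, an inhibitor of alcohol dehydrogenase, at 68.1 mg/kg in saline. Every gene difference given here is therefore between 2 regions of animals that shared both drinking and pyrazole. RNA came from micropunches, small cores of tissue, so a library holds the part of the region under the punch and whatever tissue bordered it.

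The hypothalamus is a mosaic of small nuclei whose neurons are told apart by the peptides they make, among them the orexin and melanin-concentrating hormone neurons of the lateral area, the oxytocin and vasopressin neurons of the paraventricular and supraoptic nuclei, and the feeding neurons of the arcuate nucleus. Most of its neurons use GABA or the vesicular glutamate transporter Slc17a6, and the region borders the third ventricle, which ciliated ependymal cells line. The prefrontal cortex is a layered sheet dominated by pyramidal neurons that use Slc17a7, with interneurons marked by peptides such as Vip and Cck. Transcription factors that pattern the embryonic forebrain remain active in the adult and keep separate sets of genes on in each region.

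For 6 peptide genes of the lateral, paraventricular and arcuate lists, all more than 2-fold higher in hypothalamus, the 100 bases before the RefSeq start site are shown first (GRCm38.p6). They were picked from those lists with their values and sequences known, and are not the 6 largest differences. Capitals mark TATAA or ATAAA, the core letters of a TATA box, searched on the gene strand in the 40 bases before the start. The 2 words overlap in TATAAA. The windows are Hcrt at chr11:100762932-100763031 (minus strand), Pmch at chr10:88090972-88091071 (plus), Oxt at chr2:130576069-130576168 (plus), Avp at chr2:130582589-130582688 (minus), Trh at chr6:92244651-92244750 (minus) and Cartpt at chr13:99900684-99900783 (minus), which holds neither word and has no capitals. The GENCODE M21 annotation places the Cartpt gene from 99898489 to 99901091, so this window lies inside it. The window therefore does not show the bases before that annotated start.
Hcrt: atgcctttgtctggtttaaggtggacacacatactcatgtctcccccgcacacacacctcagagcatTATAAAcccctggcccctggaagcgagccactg
Pmch: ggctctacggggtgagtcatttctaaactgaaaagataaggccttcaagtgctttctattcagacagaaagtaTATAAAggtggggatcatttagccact
Oxt: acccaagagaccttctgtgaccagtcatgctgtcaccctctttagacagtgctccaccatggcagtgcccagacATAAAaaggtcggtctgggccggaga
Avp: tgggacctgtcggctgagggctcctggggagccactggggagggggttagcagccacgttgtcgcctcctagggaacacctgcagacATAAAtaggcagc
Trh: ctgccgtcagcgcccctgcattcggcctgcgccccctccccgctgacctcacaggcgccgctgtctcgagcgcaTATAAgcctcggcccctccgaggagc
Cartpt: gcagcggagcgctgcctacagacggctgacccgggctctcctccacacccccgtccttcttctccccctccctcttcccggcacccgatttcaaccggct

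The first capital lies 33 bases before the start in Hcrt, 27 in Pmch, 26 in Oxt, 13 in Avp and 26 in Trh. Of 27 genes in the 4 lists of hypothalamic peptides, 23 had a promoter in the table, and 12 of those (52.2%) held the motif, against 8.68% of 27025 genes with a promoter and 4.19% of the genes tested that had one. It also stood in 7 of 13 activity-regulated genes (53.8%), and among the genes past 2-fold in 8.38% of those higher in hypothalamus and 11.1% of those higher in prefrontal cortex. Besides the genes printed, the matches were Npy, Pomc, Ghrh, Npvf, Vip, Tac1 and Adcyap1. These letters were chosen after the sequences had been read, and a match is a description of the window, not a mapped site.

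Gene expression was measured by TagSeq, which reads the 3′ end of each mRNA, so a gene's count does not grow with its length. The 36 libraries held between 1117393 and 3861281 reads counted on genes, with a median of 2372369. Values are CPM, each gene's share of a library's reads after TMM scaling, given as lowest, median and highest over 18 libraries of a region. Differences are log2 fold changes of hypothalamus over prefrontal cortex with their SE, from a fit with mouse as a block, with n = 18 pairs throughout. In tissue of mixed cells, fewer cells of a type and less RNA per cell cannot be told apart. The strand setting of the counting was not given in the sources used here, so reads of overlapping or antisense genes cannot be told apart either.

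Several libraries stood apart and are named before the results. The prefrontal cortex library of mouse 28, a female, had the fewest reads (1117393, against 2014647 in the next of the female prefrontal cortex libraries). It also had more Hcrt than the hypothalamus library of this mouse (25.95 against 11.45 CPM) and 12.98 CPM of the Y-linked gene Ddx3y. The summed level of 9 liver genes in it was 2107 CPM, against a median of 32.4 over 18 prefrontal cortex libraries. Whether RNA of other samples reached the libraries of this mouse was not tested. Its hypothalamus library held 401 CPM of the liver genes, and those of the female mice 26, 29 and 40 held 396, 362 and 430 CPM, against a median of 57.7, and the prefrontal cortex library of mouse 40 held 272 CPM. In prefrontal cortex, mice 10, 15, 37 and 40 carried summed olfactory bulb genes (Doc2g, Cdhr1, Eomes, Tbx21, Lbhd2) of 202, 770, 272 and 612 CPM against a median of 36.6. In hypothalamus, mice 06, 12, 14, 29 and 40 carried summed thalamus markers (Tcf7l2, Prkcd, Gbx2, Slitrk6) of 444, 1026, 515, 370 and 244 CPM against a median of 109. Female mice 27, 30, 37 and 39 stood apart in their share of ERCC spike-in reads. Reads of the ERCC spike-ins made up 0.000159 to 0.000567% of their libraries and 0.0108 to 1.22% of those of the other 14 mice, and blood genes summed to 9.51 to 55.7 CPM in their hypothalamus libraries against 217 to 450 CPM in the others. In prefrontal cortex blood genes summed to 12.5 to 104 CPM in these mice, a range that also held mouse 28 (43.9 CPM). On the third principal component, with 5.63% of the variance, they lay between -27.67 and -14.11, as did the prefrontal cortex library of mouse 28 (-16.65). All 4 are female, as are 4 of the other 14 mice. The counts over all genes are also given without these mice below, as are the values of some single genes. The counts of the lists are given with all 18 mice.

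Region was the main axis of the data. The first principal component of the 36 libraries held 60.4% of the variance and the second 6.37%. Of 12729 genes tested, 4429 (34.8%) were higher in hypothalamus and 4245 (33.3%) in prefrontal cortex at an adjusted p under 0.05 (edgeR quasi-likelihood test, Benjamini-Hochberg adjustment). Each count of a list below is to be read against these shares of all genes, and a share near them is no result about the list. The median absolute log2 difference over all 12729 genes, called or not, was 0.29. A test against a 2-fold difference left 508 genes (3.99%) higher in hypothalamus and 635 (4.99%) higher in prefrontal cortex, 1143 (8.98%) in all. Every hypothalamus library lay above every prefrontal cortex library for 635 genes (4.99%), and the reverse held for 748 (5.88%). Both conditions held for 318 of the 2-fold genes on the hypothalamus side and 412 on the cortex side.

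**Figure D1:**
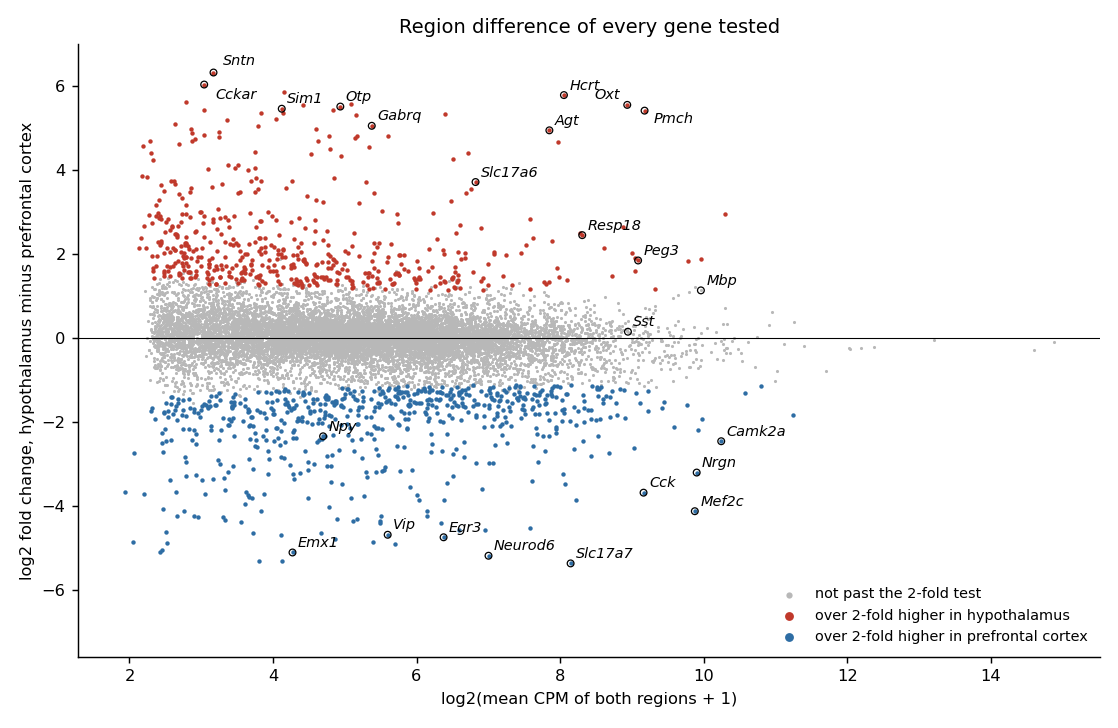
Log2 fold change of hypothalamus over prefrontal cortex (vertical axis) against log2 of the mean CPM of both regions plus 1 (horizontal axis), 1 point per gene tested, 12729 in all. Red points are the 508 genes over 2-fold higher in hypothalamus, blue points the 635 over 2-fold higher in prefrontal cortex, and grey points the rest. Peptides, Slc17a6 and Agt stand at the top right, and Slc17a7, Mef2c, Nrgn and Camk2a at the bottom right.

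Without the 4 mice with few ERCC reads 4027 and 3779 genes were called, and 426 and 552 passed 2-fold. The called genes numbered 4507 and 4164 without mouse 28, 4389 and 4046 without the 4 mice high in olfactory bulb genes, and 4189 and 4031 without the 5 mice high in thalamus markers. Without mouse 28 the 2-fold genes numbered 528 and 628, without the 4 mice high in olfactory bulb genes 519 and 679, and without the 5 mice high in thalamus markers 488 and 666. Scaling by library size alone raised the median of all genes to 0.15 and moved the split of called genes to 6141 higher in hypothalamus and 3004 higher in prefrontal cortex, so that 67.2% in place of 51.1% lay on the hypothalamus side. Under that scaling the 2-fold genes numbered 621 higher in hypothalamus and 526 higher in prefrontal cortex, so that the side with more of them turned over.

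The 12 largest differences towards hypothalamus among genes with at least 10 CPM there were Sntn, Cckar, Npvf, Hcrt, Lhx1os, Irs4, Oxt, Tmem212, Otp, Sim1, Isl1 and Fam216b. They are peptides and a peptide receptor, transcription factors, an insulin receptor substrate (Irs4), a long noncoding RNA beside Lhx1, and Sntn and Tmem212, which were in the ependymal list, with Fam216b in none of these groups. The 12 largest towards prefrontal cortex were Slc17a7, Gm11549, Ovol2, Neurod6, Emx1, Kcnh3, Igfbp6, Dkkl1, Egr3, Vip, Krt12 and Gm49593. Some reads of each gene were also counted in the lower region. The mean prefrontal cortex level was 0.897 to 2.42% of the hypothalamus level for the first 12 genes. For the second 12 the mean hypothalamus level was 2.30 to 4.02% of the cortex level. Whether these reads came from the region itself or from other samples was not tested.

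Peptide lists are named after areas, and a punch does not show in which nucleus a member was expressed. The lateral hypothalamic list had the highest median of all the peptide lists. Of 6 genes 5 passed the filter on low counts, all 5 were higher in hypothalamus and 4 passed the 2-fold test, with a median log2 difference of 5.41 beside 0.01 for all genes. Hcrt (ENSMUSG00000045471.4, chromosome 11 from 100761069 to 100762931, minus strand) encodes the orexins, which sustain wakefulness. It ranged over 11.4, 432 and 1296 CPM in hypothalamus and over 0, 8.04 and 25.95 CPM in prefrontal cortex. Hypothalamus was the higher region in 17 of 18 mice, mouse 28 being the exception, and the ranges overlapped through that mouse. The log2 difference was 5.78 ± 0.45 (adjusted p = 4.07e-11), a 55.0-fold difference. Without mouse 28 it was 6.01 for Hcrt, and 5.58 in place of 5.41 for Pmch. Without the 4 mice with few ERCC reads Hcrt stood at 5.15. In females alone Hcrt and Pmch stood at 7.10 and 6.99, and in males alone at 4.97 and 4.66, where the test of the difference between the sexes passed for neither gene over all 18 mice and for Pmch without mouse 28.

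Pmch, melanin-concentrating hormone, which promotes feeding, was the most abundant of the group, at 32.6, 1239 and 2076 CPM in hypothalamus against 0.519, 23.9 and 64.6 CPM in prefrontal cortex. It too was higher in 17 of 18 mice, with a log2 difference of 5.41 ± 0.43 (adjusted p = 8.31e-11). Npvf, the RFamide peptide that restrains reproduction, stood at 0.440, 33.5 and 80.2 CPM against at most 1.99 CPM, for a log2 difference of 5.86 ± 0.24. It was higher in hypothalamus in 18 of 18 mice, yet the hypothalamus libraries of mice 28 and 06 lay within the cortex range. Nts, neurotensin, had 9.34 to 112 CPM against 0 to 5.99 CPM with no overlap and a log2 difference of 3.58 ± 0.20. Pdyn, the dynorphin precursor made in both regions, differed least, at 75.4 against 37.1 CPM at the median (1.06 ± 0.17). Qrfp, the sixth gene, did not pass the filter and had 166 counts over 18 hypothalamus libraries and 2 over 18 prefrontal cortex libraries.

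**Figure D2:**
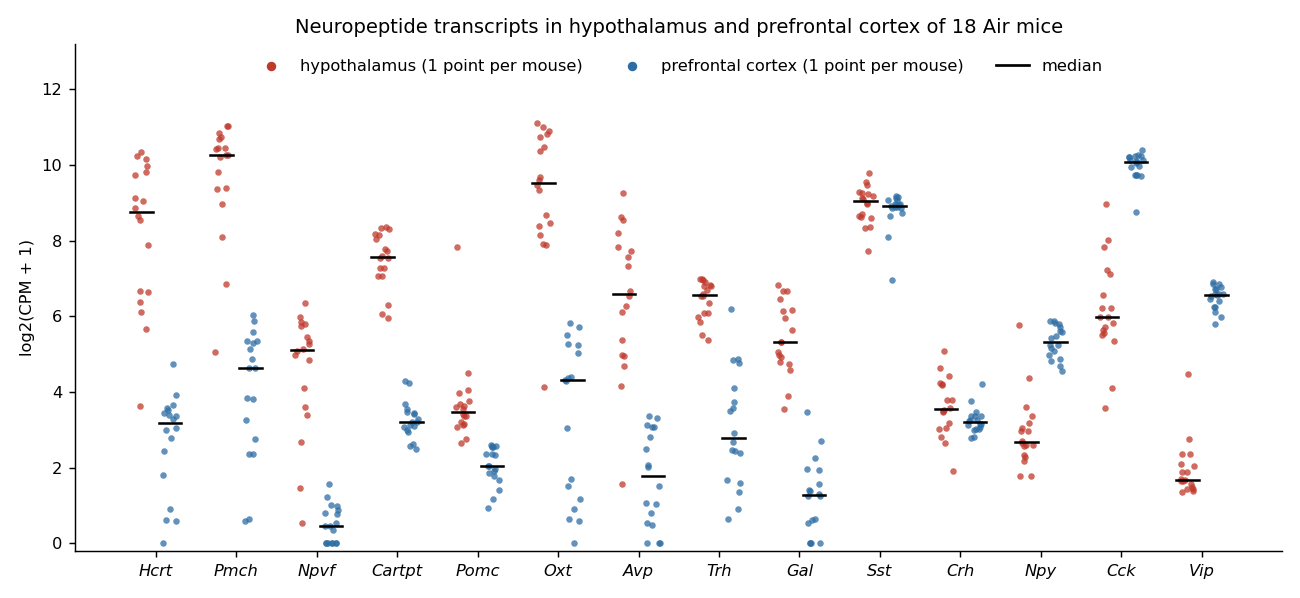
Levels of 14 neuropeptide transcripts as log2(CPM + 1) in the 18 hypothalamus libraries (red) and the 18 prefrontal cortex libraries (blue) of the Air mice, 1 point per mouse and a bar at the median. Hcrt, Pmch, Npvf, Cartpt, Oxt, Avp, Trh and Gal are high in red, Npy, Cck and Vip are high in blue, and Sst and Crh lie at like levels in both.

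The paraventricular and supraoptic list comprised 4 peptides that were far higher in hypothalamus and 2, Sst and Crh, with smaller differences. All 6 were tested, 4 were higher in hypothalamus, each past 2-fold, and 2 did not pass (median log2 difference 3.72). Oxt (ENSMUSG00000027301.7, chromosome 2 from 130576173 to 130577054, plus strand), oxytocin, stood at 16.5, 742 and 2211 CPM in hypothalamus and 0, 18.8 and 55.3 CPM in prefrontal cortex. Only the lowest hypothalamus library lay inside the cortex range, and every mouse had more in hypothalamus (5.55 ± 0.37, adjusted p = 2.53e-12, 46.8-fold). In females alone Oxt stood at 6.87 and in males alone at 4.92, and the test of the difference between the sexes did not pass for it. Avp, vasopressin, the water-balance hormone encoded next to Oxt, ranged over 1.96, 96.2 and 614 CPM against 0, 2.46 and 9.36 CPM, with a log2 difference of 5.34 ± 0.31. Parts of the Avp and Oxt transcripts are alike in sequence, so reads could be shared between them.

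Gal, galanin, had 10.7 to 112 CPM in hypothalamus and 0 to 10.0 CPM in prefrontal cortex, with no overlap and a log2 difference of 4.50 ± 0.24. Trh, thyrotropin-releasing hormone, had 40.4, 94.0 and 125 CPM against 0.553, 5.92 and 72.2 CPM (2.95 ± 0.36), and without the 4 mice high in olfactory bulb genes the difference was 3.86. Without those mice Gal stood at 5.24. Sst, somatostatin, which both hypothalamic neurons and cortical interneurons make, had 531 CPM at the median in hypothalamus and 485 CPM in prefrontal cortex (0.15 ± 0.12, adjusted p = 0.275), and passed at 0.20 (adjusted p = 0.0279) without the 5 mice high in thalamus markers. Crh, the stress-axis releasing hormone, had 10.7 and 8.16 CPM (0.44 ± 0.22, adjusted p = 0.0814, and 0.52 with adjusted p = 0.0276 when mouse was not a block). Crh passed at 0.80 (adjusted p = 0.000378) without the 4 mice high in olfactory bulb genes, at 0.60 (0.00484) without mouse 15, at 0.51 (0.0421) without mouse 40, and at 0.67 (0.00581) in CIE mice. Under scaling by library size alone both passed, Sst at 0.29 (adjusted p = 0.0308) and Crh at 0.58 (adjusted p = 0.0239). Both ranges overlapped.

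Peptides of the arcuate list did not move as a group. Of 7 genes 4 were tested, 3 of them higher in hypothalamus and 1, Npy, higher in prefrontal cortex (median log2 difference 1.45). Cartpt, the CART peptide that reduces feeding, ranged over 61.3, 190 and 327 CPM in hypothalamus against 4.68, 8.25 and 18.4 CPM, with no overlap (4.40 ± 0.16, adjusted p = 2.30e-17, 21.2-fold). Pomc, the precursor of melanocortins and of ACTH, had 5.33, 10.2 and 227 CPM against 0.909, 3.12 and 5.02 CPM, again without overlap (2.06 ± 0.32, adjusted p = 4.11e-06, and 1.12 in CIE mice with adjusted p = 6.50e-05). Its highest library, mouse 27, lay far above the next, mouse 09 at 21.6 CPM. Mouse 27 also had the highest Agrp (27.1 CPM, next 3.63) and Npy (53.6 CPM, next 19.6) in hypothalamus. Summed over 9 pituitary genes, the hypothalamus libraries ranged from 0 to 95.8 CPM with a median of 0.708 CPM. That of mouse 27 had 6.36 CPM, and only mice 10 (95.8 CPM) and 15 (12.5 CPM) had more. The part of pituitary tissue in the Pomc level of mouse 27 was not tested.

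Npy itself, an appetite-stimulating peptide of arcuate neurons and of cortical interneurons, had 2.42, 5.41 and 53.6 CPM in hypothalamus and 22.6, 39.4 and 57.8 CPM in prefrontal cortex. It was lower in hypothalamus in 17 of 18 mice (-2.35 ± 0.23, adjusted p = 2.25e-09). Tac2, neurokinin B, was higher in hypothalamus by 0.83 ± 0.20. Agrp and Ghrh did not pass the filter, with 128 counts against 60 and 260 against 9 (77 against 54 and 227 against 9 without mouse 27), and Kiss1 was listed at 0 in all 36 libraries. Several genes that neurons or microglia use widely, such as Tubb3 and Trem2, were listed at 0 in all of them too, so no level can be read from such a row.

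Of 8 genes in the preoptic and suprachiasmatic list 4 were tested, and they went both ways. Tac1 (1.45 ± 0.17) and Adcyap1 (0.39 ± 0.15) were higher in hypothalamus and Vip and Grp were higher in prefrontal cortex. Gnrh1, Nms, Prok2 and Nmu did not pass the filter. In the fit without it 1 of them was higher in hypothalamus and 0 in prefrontal cortex, where 17.0 and 16.7% of genes were called on each side. Vip, the vasoactive intestinal peptide of cortical interneurons and of the circadian clock nucleus, had 1.57, 2.21 and 21.1 CPM in hypothalamus and 54.3, 94.2 and 120 CPM in prefrontal cortex (-4.69 ± 0.18, adjusted p = 1.04e-16). The ranges did not overlap, and the highest hypothalamus value again came from mouse 28. Grp, gastrin-releasing peptide, had 10.0 against 51.8 CPM at the median (-2.07 ± 0.23).

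Among 11 peptides of cortical cells, 6 were higher in prefrontal cortex, 5 of them past 2-fold, and 3 were higher in hypothalamus. Cck, cholecystokinin, was the most abundant, at 10.9, 62.3 and 504 CPM in hypothalamus and 429, 1087 and 1340 CPM in prefrontal cortex (-3.69 ± 0.30, adjusted p = 1.01e-10, 12.9-fold). It was higher in cortex in 18 of 18 mice though the ranges met. Without the 5 mice high in thalamus markers the difference of Cck was -4.31, and in females alone -4.30. Cort, cortistatin, had at most 2.54 CPM in hypothalamus and at least 6.79 CPM in prefrontal cortex (-4.26 ± 0.27). Bdnf, the growth factor counted among them, differed by -1.48 ± 0.15. On the other side stood Rspo1 (2.36 ± 0.17), a Wnt potentiator, Pnoc (1.78 ± 0.12), the nociceptin precursor, and Penk (1.01 ± 0.20), the enkephalin precursor, of which the first pair did not overlap between regions.

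Peptide levels also varied together across mice within hypothalamus. Over 45 pairs among 10 peptides, 6 passed an adjusted p under 0.05 by both Pearson's r and Spearman's rho of log2(CPM + 1) over 18 mice, and all 6 were positive (permutation tests, 100000 resamples, two-sided, Benjamini-Hochberg adjustment over the 45 pairs). Among them 3 joined Hcrt, Pmch and Cartpt: Hcrt and Pmch (r = 0.85, rho = 0.80), Cartpt and Pmch (r = 0.80, rho = 0.93), and Cartpt and Hcrt (r = 0.68, rho = 0.74), with adjusted permutation p of 0.000225, 0.00214 and 0.0202 for r. The other 3 joined the paraventricular peptides: Avp and Oxt (r = 0.91, rho = 0.90), Oxt and Trh (r = 0.80, rho = 0.72), and Avp and Trh (r = 0.66, rho = 0.63), with adjusted permutation p of 0.000225, 0.00105 and 0.022. Reads shared between Avp and Oxt would enter the relation of that pair, and their part in it was not tested. The unadjusted p of 1e-05 behind the values of 0.000225 is the smallest that the resampling can give. Leaving out the 2 mice farthest from the median of the first gene left r at 0.71, 0.81, 0.84, 0.83, 0.70 and 0.54 for the 6 pairs in the order given. For Cartpt and Hcrt it was 0.48 when the mice were chosen by Hcrt.

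The relations held in sign within each sex. Among 8 females r was 0.93 for Hcrt and Pmch (exact permutation p = 0.0207) and 0.84 for Avp and Oxt (exact permutation p = 0.0151). Among 10 males it was 0.80 (permutation p = 0.00161) and 0.95 (permutation p = 0.00017). In females mouse 28 had the lowest Hcrt and Pmch in hypothalamus (11.45 and 32.6 CPM, next 234 and 503 CPM). The relation of Hcrt and Pmch in females without mouse 28 was not tested. Avp and Trh were past 0.05 within males (r = 0.81, permutation p = 0.00529) and did not pass in females (r = 0.44, exact permutation p = 0.280). Cartpt and Hcrt likewise passed in males (r = 0.80, permutation p = 0.00423) and not in females (r = 0.66, exact permutation p = 0.0586). Between the sets all 9 values of r were negative over 18 mice (-0.48 to -0.12), with 0 passing adjustment by r and 3 by rho. The 3 values with Pmch turned positive without the 2 mice farthest from its median, became -0.45 (Avp), -0.60 (Oxt) and -0.48 (Trh) when the 2 mice were chosen by the other gene, and 2 of them were positive within males. Examples are Hcrt and Oxt (r = -0.30, rho = -0.60) and Cartpt and Avp (r = -0.47, rho = -0.63), where rho passed adjustment (0.0497 and 0.0401) and r did not (0.422 and 0.154). Agrp and Pomc had r = 0.79, which fell to -0.21 without the 2 mice farthest from the median of Agrp, mouse 27 among them. Where in the hypothalamus each punch lay was not given in the sources used here, and its part in these relations was not tested.

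**Figure D3:**
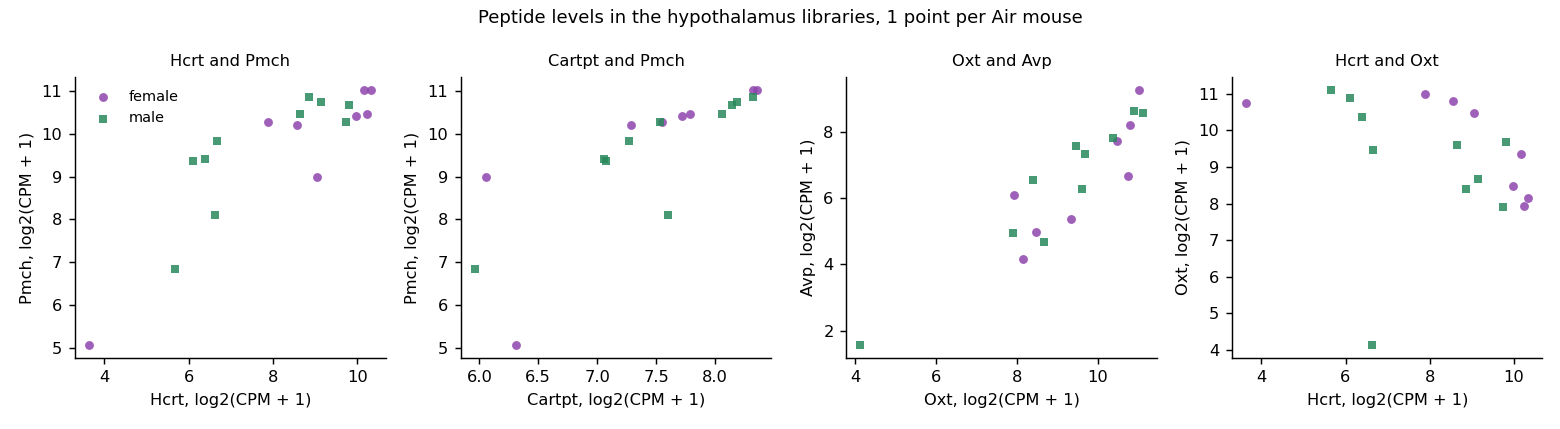
Peptide levels as log2(CPM + 1) in the hypothalamus library of each Air mouse, females as purple circles and males as green squares. Hcrt and Pmch, Cartpt and Pmch, and Oxt and Avp rise together across the 18 mice, while Hcrt and Oxt do not.

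Genes of peptide processing and of the secretory granule were expressed in both regions. Of 14, 6 were higher in hypothalamus, 5 in prefrontal cortex and 3 did not pass, with a median of 0.03, beside 34.8% and 33.3% of all genes tested. Resp18, a granule protein of endocrine cells, had 353 to 671 CPM in hypothalamus and 47.2 to 118 CPM in prefrontal cortex (2.45 ± 0.07, adjusted p = 8.12e-19). Scg2, secretogranin II, had 502 to 1038 CPM against 161 to 494 CPM (1.90 ± 0.10). Neither gene's ranges overlapped. Chga was higher by 0.70 ± 0.06, whereas its relative Chgb was lower in hypothalamus with no overlap (-0.38 ± 0.03), and the convertase Pcsk2 was lower in hypothalamus (-1.04 ± 0.10).

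Transcription factors marked each region. Of 41 factors known from hypothalamic development, 21 passed the filter, 17 of which were higher in hypothalamus, 13 past 2-fold, 1 was higher in prefrontal cortex and 3 did not pass (median log2 difference 2.25). The other 20 had at most 8.78 CPM as a mean of both regions and were tested only in the fit with no filter, where all 20 were higher in hypothalamus. In that fit 17.0% of 30881 genes were called on that side. The largest difference was that of Otp, a homeobox factor of neuroendocrine neurons, at 12.1, 61.6 and 89.1 CPM against 0, 0.765 and 3.52 CPM (5.51 ± 0.22, adjusted p = 1.93e-16). Sim1, which the paraventricular nucleus needs to form, had 14.3, 33.6 and 49.0 CPM against at most 2.64 CPM (5.46 ± 0.19). Isl1, a LIM factor of arcuate neurons, had 24.8, 55.0 and 84.8 CPM against at most 5.99 CPM (5.44 ± 0.20). None of these ranges overlapped.

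Lhx1, Lhx5, Six3 and Nkx2-1 followed, with log2 differences of 5.19 ± 0.21, 4.88 ± 0.23, 4.80 ± 0.14 and 4.79 ± 0.29. Nkx2-1, which patterns the ventral hypothalamus, had 2.42, 14.8 and 67.8 CPM against at most 2.00 CPM, a wide spread among hypothalamus libraries with no overlap between regions. Zfhx3, a factor of the clock nucleus, had the highest median of the group in hypothalamus, at 159, 181 and 296 CPM against 23.6, 32.3 and 44.9 CPM (2.62 ± 0.07, adjusted p = 9.01e-20). Of the factors under the filter, Nr5a1, the marker of the ventromedial nucleus, had 322 counts over the hypothalamus libraries and 8 over those of prefrontal cortex. Lhx9 had 693 against 34, Six6 478 against 5, and Hmx2 161 against 0.

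The Dlx factors of GABA neurons behaved otherwise. Dlx1, Dlx2 and Dlx6 were higher in hypothalamus by 0.74, 0.69 and 0.86, and Dlx5 did not pass (0.01 ± 0.27), but without the 4 mice high in olfactory bulb genes Dlx5 passed at 0.64 (adjusted p = 0.0117). The highest Dlx1 and Dlx5 levels in prefrontal cortex were 242 and 62.3 CPM. The single factor of the list that was higher in prefrontal cortex was Meis2, at 22.3, 83.5 and 164 CPM in hypothalamus against 239, 300 and 1498 CPM (-2.17 ± 0.20), with no overlap. Tbx3 did not pass (0.15 ± 0.24).

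Of 32 cortical factors 30 were tested, and 23 were higher in prefrontal cortex, 20 past 2-fold, against 4 higher in hypothalamus (median log2 difference -1.86). Neurod6, a factor of pyramidal neurons, had 1.46, 5.32 and 18.8 CPM in hypothalamus and 47.5, 273 and 340 CPM in prefrontal cortex (-5.19 ± 0.21, adjusted p = 3.16e-16, 36.6-fold). Emx1, which specifies the dorsal telencephalon, had at most 3.54 CPM against at least 18.1 CPM (-5.11 ± 0.18). Both pairs of ranges stood apart. Mef2c, the most abundant factor of the list, had 58.2, 91.3 and 262 CPM against 1175, 1848 and 2159 CPM (-4.13 ± 0.14).

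Tbr1, Fezf2 and Neurod2, factors of cortical projection neurons, lay at -4.42, -4.41 and -4.57 on the log2 scale, and none of these 3 overlapped between regions. The 4 factors higher in hypothalamus were Tshz2 (1.08 ± 0.08), Foxp2 (1.05 ± 0.18), Tle4 (0.32 ± 0.10) and Cux1 (0.31 ± 0.09), of which Tle4 did not pass in males alone (0.23, adjusted p = 0.150) or in CIE mice (0.08, adjusted p = 0.402). Of 18 cortical layer markers tested 10 were higher in hypothalamus, 2 past 2-fold, and 6 in prefrontal cortex, 5 past 2-fold, beside 34.8% and 33.3% of all genes tested (3.99% and 4.99% past 2-fold). Towards hypothalamus stood Rspo1 (2.36) and Nxph4 (2.05), and towards prefrontal cortex Fezf2 (-4.41), Lamp5 (-3.46), Bcl11b (-2.77), Cux2 (-1.66) and Etv1 (-1.61).

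**Figure D4:**
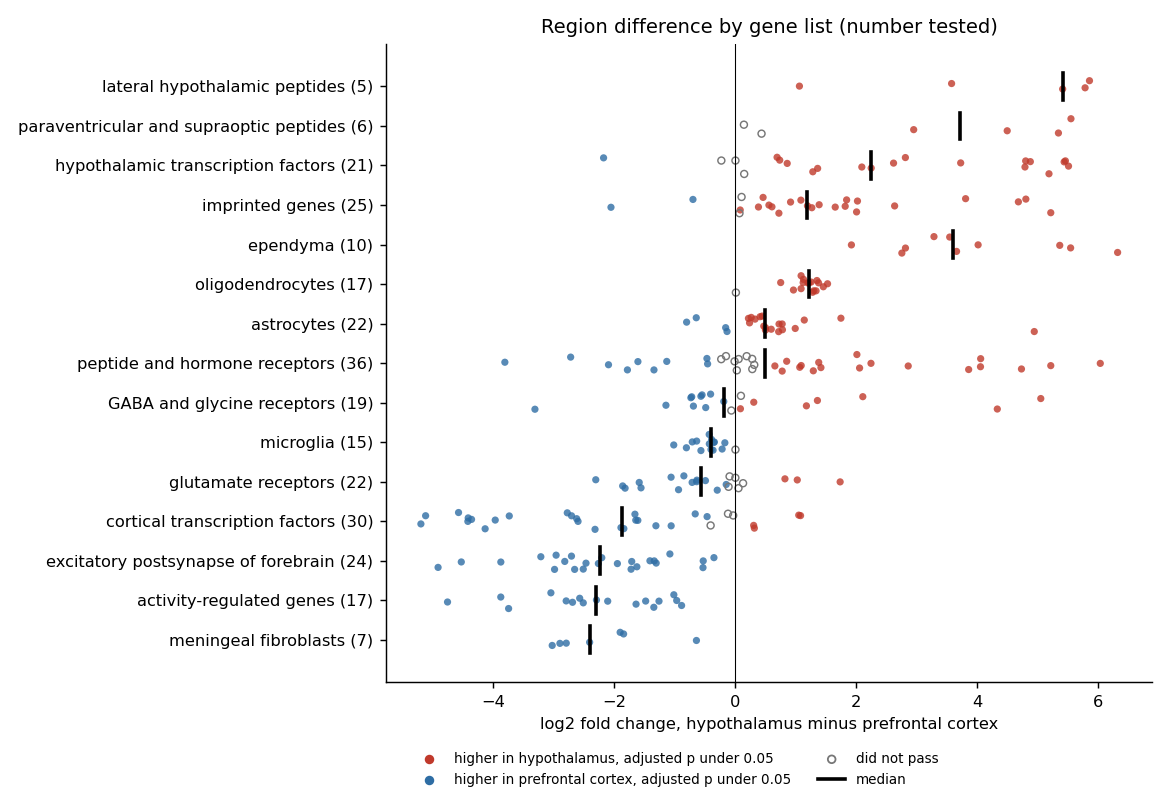
Log2 fold change of hypothalamus over prefrontal cortex for the tested members of 15 gene lists, 1 point per gene, the number tested in brackets, and a bar at the list's median. Red and blue points passed an adjusted p of 0.05 and open points did not. Lateral hypothalamic peptides lie at the right with a median of 5.41, and meningeal, activity-regulated and postsynaptic genes lie at the left with medians of -2.41, -2.29 and -2.23.

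The genes of fast transmitters differed strongly between the regions. Slc17a7 (ENSMUSG00000070570.5, chromosome 7 from 45163949 to 45176142, plus strand), the glutamate transporter of cortical synaptic vesicles, had 1.52, 10.4 and 53.1 CPM in hypothalamus and 243, 573 and 633 CPM in prefrontal cortex (-5.38 ± 0.24, adjusted p = 1.15e-15, 41.5-fold). Slc17a6, its subcortical counterpart, had 109, 185 and 425 CPM in hypothalamus and 9.82, 15.1 and 22.6 CPM in prefrontal cortex (3.71 ± 0.13, adjusted p = 1.27e-17, 13.1-fold). Neither gene overlapped. Gad2, a GABA-synthesizing enzyme, was higher in hypothalamus (851 against 225 CPM, 1.60 ± 0.17), as were the vesicular GABA transporter Slc32a1 (257 against 81.9 CPM, 1.31 ± 0.16), the GABA uptake carrier Slc6a11 (1.75 ± 0.13) and the GABA transaminase Abat (1.17 ± 0.07). Gad1, the other synthesizing enzyme, did not pass (238 against 166 CPM, 0.04 ± 0.23), and its prefrontal cortex level reached 1015 CPM in mouse 40. Without the 4 mice high in olfactory bulb genes Gad1 passed as higher in hypothalamus (0.46, adjusted p = 0.018).

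Of 17 monoamine and acetylcholine genes 9 were tested and 8 were higher in hypothalamus. Hdc, which makes histamine in tuberomammillary neurons, had 2.42, 13.1 and 74.5 CPM against at most 2.26 CPM, and the ranges stood apart (4.11 ± 0.28). Slc18a2, the vesicular monoamine transporter, and Ddc, which decarboxylates dopa and 5-hydroxytryptophan, had log2 differences of 3.81 ± 0.18 and 3.02 ± 0.13, without overlap. Th, the rate-limiting enzyme of dopamine synthesis, had 65.8 against 14.1 CPM at the median but reached 211 CPM in the prefrontal cortex library of mouse 15, one of those high in olfactory bulb genes (1.60 ± 0.35). Ache, acetylcholinesterase, had 186 to 241 CPM against 41.9 to 63.2 CPM (2.00 ± 0.05, adjusted p = 5.28e-20). Hnmt, which degrades histamine, was higher in prefrontal cortex (-0.30 ± 0.07). Slc18a3 was listed at 0 in all libraries.

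Receptors for peptides and hormones were split, 18 of the 36 tested being higher in hypothalamus, 9 in prefrontal cortex and 9 not passing (median log2 difference 0.49), with 11 and 6 past 2-fold. Of all genes tested 34.8% and 33.3% were called on these sides, and 3.99% and 4.99% past 2-fold. Of the 13 under the filter, 8 were higher in hypothalamus and 2 in prefrontal cortex in the fit without it, where 17.0 and 16.7% of genes were called on each side. Cckar and Cckbr, the 2 cholecystokinin receptors, went in opposite directions. Cckar had 4.70, 15.3 and 20.1 CPM in hypothalamus and 0, 0 and 0.993 CPM in prefrontal cortex (6.03 ± 0.24, adjusted p = 1.67e-16). In females alone its difference was 7.90, but no female prefrontal cortex library had a count of Cckar, so the size of that value cannot be measured. In CIE mice the difference of Cckar was 5.19. Cckbr had 12.4, 19.1 and 25.7 CPM against 84.5, 129 and 155 CPM (-2.72 ± 0.08, adjusted p = 7.30e-19). Neither overlapped.

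Calcr, the calcitonin receptor, Galr1, a galanin receptor, Glp1r, the incretin receptor on which appetite-lowering drugs act, Tacr3, the neurokinin B receptor, and Prlr, the prolactin receptor, were all higher in hypothalamus without overlap, with log2 differences of 5.21 ± 0.20, 4.73 ± 0.24, 4.06 ± 0.19, 4.05 ± 0.24 and 3.86 ± 0.29 (for Prlr 2.64 in CIE mice). The opioid receptors divided. Oprk1 (2.86 ± 0.15), Oprm1 (2.01 ± 0.11) and Oprl1 (1.42 ± 0.06) were higher in hypothalamus, and Oprd1 was higher in prefrontal cortex (-1.78 ± 0.18). For Oprm1, the target of morphine and naltrexone, the hypothalamus libraries lay between 37.7 and 83.2 CPM and those of prefrontal cortex between 7.45 and 26.8 CPM. Receptors higher in prefrontal cortex included Vipr1 (-3.81 ± 0.17), the VIP receptor, Crhr1 (-2.09 ± 0.13), through which CRH acts, and Sstr3 (-1.34 ± 0.11), each without overlap, and Npy1r (-1.13 ± 0.09), in which every mouse was higher in cortex. Insr, the insulin receptor, did not differ past the threshold (-0.01 ± 0.06).

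Of 17 nuclear receptors tested, 4 were higher in hypothalamus, 7 in prefrontal cortex and 6 did not pass, beside 34.8% and 33.3% of all genes tested (median -0.09). Nr2f2 (2.09 ± 0.12) and Esr1, estrogen receptor alpha (1.504 ± 0.133), were over 2-fold higher in hypothalamus, and Nr4a1, Nr4a3 and Thrb were over 2-fold higher in prefrontal cortex. Nr3c1, the glucocorticoid receptor, had 136 and 144 CPM at the median (-0.03 ± 0.05, adjusted p = 0.613).

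Receptor subunits for GABA and glycine differed one by one. Of 19 tested, 10 were higher in prefrontal cortex, 7 in hypothalamus and 2 did not pass, beside 33.3% and 34.8% of all genes tested, with a median of -0.19. Gabrq, the theta subunit, had 23.0, 72.5 and 152 CPM in hypothalamus and 0.520, 2.17 and 4.44 CPM in prefrontal cortex (5.05 ± 0.12, adjusted p = 2.30e-20, 33.1-fold). Glra1, a glycine receptor subunit best known from brainstem and spinal cord, had 34.9, 56.1 and 75.5 CPM against at most 4.91 CPM (4.33 ± 0.12). Gabrg1 was higher by 2.11 ± 0.08. Gabrb2, a beta subunit of the synaptic GABA receptor, was higher in cortex in every mouse (-0.73 ± 0.09). Gabrd, the extrasynaptic delta subunit, had 3.73 against 66.1 CPM at the median (-3.31 ± 0.30), and one hypothalamus library reached 64.9 CPM. Without the 5 mice high in thalamus markers its difference was -4.60.

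Of 22 glutamate receptors 14 were higher in prefrontal cortex and 3 in hypothalamus, beside 33.3% and 34.8% of all genes tested, with a median of -0.56. Grin2a (68.1 against 340 CPM at the median, -2.30 ± 0.08), Gria3 (-1.82 ± 0.06) and Grin2b (-1.56 ± 0.06) were over 2-fold higher in prefrontal cortex without overlap. Grin2d (1.74 ± 0.14), Grin3a (1.03 ± 0.06) and Grik1 (0.82 ± 0.12) were higher in hypothalamus. NMDA receptor genes thus differed in both directions. Of 25 monoamine and acetylcholine receptors tested, 10 were higher in hypothalamus and 12 in prefrontal cortex, beside 34.8% and 33.3% of all genes tested. Those higher in hypothalamus included Drd2 (2.86 ± 0.26, and 1.55 in CIE mice), Htr7 (2.53 ± 0.10), Htr4 (1.89 ± 0.20) and Htr2c (1.54 ± 0.11). Those higher in prefrontal cortex were led by the muscarinic receptor Chrm1 at 17.3 against 230.1 CPM (-3.60 ± 0.11, 12.1-fold), the serotonin receptor Htr1f (-2.19 ± 0.20) and the beta-adrenergic receptor Adrb1 (-1.99 ± 0.10), and included the serotonin receptor Htr2a (-1.34 ± 0.13). Of the 6 receptors of this list under the filter, 0 were higher in hypothalamus and 4 in prefrontal cortex in the fit without it. In that fit 17.0 and 16.7% of genes were called on each side.

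The postsynaptic genes of forebrain excitatory neurons moved as a block. All 24 were tested, all 24 were higher in prefrontal cortex and 20 passed the 2-fold test, where 4.99% of genes did so on that side, and the median log2 difference was -2.23. Their summed level was 3322 to 5091 CPM in hypothalamus and 9742 to 17144 CPM in prefrontal cortex. Camk2a, the calcium-dependent kinase of dendritic spines, had 293, 357 and 537 CPM against 1198, 2162 and 2564 CPM (-2.46 ± 0.08, adjusted p = 3.67e-18). Nrgn, the calmodulin buffer neurogranin, had 173 against 1851 CPM at the median (-3.21 ± 0.10). Kcnh3, a potassium channel (-4.91 ± 0.14), Itpka, an inositol trisphosphate kinase (-4.52 ± 0.15), and Ddn, dendrin (-3.87 ± 0.14), had the largest differences. None of these 5 overlapped.

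Activity-regulated genes, whose transcription follows neuronal firing, were lower in hypothalamus throughout: 17 of 18 were tested, all 17 were higher in prefrontal cortex, 13 past 2-fold, with a median of -2.29. Egr2 was listed at 0 in all 36 libraries. Egr3 had 1.21, 4.65 and 11.5 CPM in hypothalamus and 121, 157 and 209 CPM in prefrontal cortex (-4.75 ± 0.14, adjusted p = 5.18e-19, 27.0-fold). Egr4 (-3.87 ± 0.11), Arc (-3.74 ± 0.13), Npas4 (-3.04 ± 0.09) and Nr4a1 (-2.79 ± 0.09) followed, none overlapping. Fos differed least, at 10.9, 40.2 and 71.4 CPM against 17.7, 60.8 and 258 CPM (-0.88 ± 0.14, adjusted p = 3.45e-06), and 17 of 18 mice were higher in cortex. Homer1, counted in both this list and the postsynaptic one, had 35.0 to 56.4 CPM against 199 to 304 CPM (-2.51 ± 0.06). Summed, these genes had 230 to 487 CPM in hypothalamus and 1172 to 2525 CPM in prefrontal cortex.

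Promoters of this list are shown because many hold the core of the cAMP response element, TGACGT, which CREB binds. In the 250 bases before the start, searched on both strands (ACGTCA on the other), the motif stood in 9 of the 13 genes with a promoter (69.2%): Fos, Egr2, Egr4, Npas4, Dusp1, Btg2, Bdnf, Homer1 and Per1. It stood in 7.29% of all genes with a promoter, 11.8% of those tested, 8.62% of those past 2-fold higher in prefrontal cortex, 7.61% of those past 2-fold higher in hypothalamus, and 4 of 23 hypothalamic peptides (17.4%). Capitals mark TGACGT, and TATAA or ATAAA near the start. The windows, again 100 bases before the start in GRCm38.p6, are Fos at chr12:85473790-85473889 (plus strand), Homer1 at chr13:93303657-93303756 (plus) and Vip at chr10:5639118-5639217 (plus), a peptide gene of cortical interneurons that holds both motifs. Homer1 holds TGACGT in 3 places, and Fos and Vip each hold it in 1 place in these windows. The windows of Fosb and Egr4, not printed, hold no TGACGT in their 100 bases, so those printed do not stand for the list.
Fos: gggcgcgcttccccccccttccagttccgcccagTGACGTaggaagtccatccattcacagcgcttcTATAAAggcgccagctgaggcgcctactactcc
Homer1: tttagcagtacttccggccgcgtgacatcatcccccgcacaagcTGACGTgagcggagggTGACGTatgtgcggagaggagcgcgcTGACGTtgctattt
Vip: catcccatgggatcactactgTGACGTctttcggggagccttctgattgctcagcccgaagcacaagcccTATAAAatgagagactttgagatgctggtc

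Imprinted genes, expressed from the copy of 1 parent, leaned the other way. Of 32, 25 were tested, 21 were higher in hypothalamus, 13 past 2-fold, 2 were higher in prefrontal cortex and 2 did not pass (median 1.20). Their summed level was 6983 to 9417 CPM in hypothalamus and 3132 to 4350 CPM in prefrontal cortex. Calcr, named above, also belongs to this list. Asb4, a ubiquitin ligase component of feeding neurons, had 20.1, 47.8 and 89.0 CPM against at most 2.94 CPM (4.80 ± 0.16), and Magel2, from the Prader-Willi region, had 16.5, 47.8 and 67.7 CPM against at most 4.55 CPM (4.68 ± 0.16). Neither overlapped.

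Peg10 (3.81 ± 0.13), Nnat (2.64 ± 0.09), Usp29 (2.02 ± 0.08), Zdbf2 (2.01 ± 0.09) and Peg3 (1.84 ± 0.06) were also apart in every library. Peg3, a zinc finger protein tied to maternal behaviour, had 864 against 236 CPM at the median. The 2 genes higher in prefrontal cortex were Cdkn1c (-2.05 ± 0.16), a cell cycle inhibitor, and Mest (-0.70 ± 0.11). Ube3a, which is imprinted in neurons, differed by 0.08 ± 0.03. Dlk1, Rian, Snurf and Peg13 were listed at 0 in all libraries.

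Among glia, oligodendrocyte markers were higher in hypothalamus. Of 17 oligodendrocyte genes tested 16 were higher in hypothalamus, 5 past 2-fold, with a median of 1.22. Mbp, myelin basic protein, had 951, 1260 and 2552 CPM against 405, 539 and 1126 CPM, higher in 18 of 18 mice although the ranges met (1.13 ± 0.13, adjusted p = 3.00e-08). Mog, on the outer face of myelin, differed by 1.53 ± 0.16, and Mag, a myelin adhesion protein, by 1.38 ± 0.14. Car2 alone did not pass. All 9 tested genes of oligodendrocyte precursors were higher in hypothalamus, none past 2-fold, from 0.21 for Vcan to 0.89 for Olig1. Summed over the list, oligodendrocyte genes had 3131 to 7603 CPM against 1301 to 3379 CPM.

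Astrocyte genes summed to like levels, 7763 to 9042 CPM in hypothalamus and 6717 to 9324 CPM in prefrontal cortex, with members going both ways. Of 22, 18 were higher in hypothalamus and 4 in prefrontal cortex. Agt (angiotensinogen, the precursor of angiotensin) stood out, at 319, 447 and 543 CPM in hypothalamus and 3.12, 15.9 and 32.9 CPM in prefrontal cortex, without overlap (4.94 ± 0.16, adjusted p = 5.35e-18, 30.8-fold). The other 17 lay between 0.22 (Aqp4, a water channel) and 1.75 (Slc6a11). The 4 higher in cortex were the glutamate transporter Slc1a2 (-0.80 ± 0.06), Mfge8 (-0.64 ± 0.06), Cpe (-0.16 ± 0.06) and Glul (-0.13 ± 0.04). The call of Cpe was lost without mouse 11 (-0.13, adjusted p = 0.0619), without mouse 28 (-0.12, adjusted p = 0.0605), in each sex alone, in CIE mice, without the mice with few ERCC reads and under scaling by library size alone.

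Microglial genes were lower in hypothalamus by small amounts. Of 15 tested, 14 were higher in prefrontal cortex, none past 2-fold, with a median of -0.40. Cx3cr1, the fractalkine receptor, had 30.1 to 45.6 CPM in hypothalamus and 41.7 to 61.0 CPM in prefrontal cortex, and 18 of 18 mice were higher in cortex (-0.43 ± 0.04, adjusted p = 4.54e-10). P2ry12, a purine receptor of resting microglia, differed by -0.57 ± 0.06 and Fcrls by -1.01 ± 0.08. Ctss did not pass, and Trem2 was listed at 0 throughout. Of 11 pan-neuronal genes 6 were higher in prefrontal cortex, with Syt1 (-1.15 ± 0.05), Rbfox3 (-1.12 ± 0.05) and Snap25 (-1.03 ± 0.07) at the front, and 2 were higher in hypothalamus, Gap43 (0.77 ± 0.08) and Uchl1 (0.22 ± 0.08). Uchl1 did not pass without the mice high in thalamus markers (0.08, adjusted p = 0.195), without the mice high in olfactory bulb genes (0.12, adjusted p = 0.0702) or in females alone (0.24, adjusted p = 0.128).

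Ependymal genes were higher in hypothalamus throughout. All 10 tested were higher in hypothalamus, all past 2-fold, with a median of 3.60 and a summed level of 49.7 to 364 CPM against 14.4 to 39.9 CPM. Tmem212 had 3.64, 43.8 and 58.6 CPM against 0, 0.586 and 2.48 CPM (5.54 ± 0.20), Sntn, of motile cilia, had 0.606, 16.1 and 29.1 CPM against at most 0.993 CPM (6.32 ± 0.26), and Foxj1, the master factor of motile cilia, had 3.03, 24.7 and 37.0 CPM against 0 to 7.55 CPM (3.55 ± 0.21). The summed level of mouse 26 (49.7 CPM) was the lowest of the hypothalamus libraries, the next being mouse 13 (125.5 CPM). Choroid plexus genes, whose tissue also touches the ventricle, summed to 36.2 to 143 CPM in hypothalamus and 5.86 to 381 CPM in prefrontal cortex, where the highest was mouse 28. Of the 381 CPM Ttr made up 355 CPM, and Ttr is also in the liver list, which was high in that library. The 2 sums are therefore not separate there. Their medians were 66.3 and 29.1 CPM, and the sum was higher in hypothalamus in 17 of 18 mice. Of 10 choroid plexus genes 3 were tested. Prlr (3.86 ± 0.29), given above among the peptide receptors, and Clic6 (2.91 ± 0.25) were over 2-fold higher in hypothalamus, and Ttr, the defining one, did not pass (0.11 ± 0.26). The part of punch depth relative to the ventricle was not tested.

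Meningeal fibroblast genes ran against ependyma. All 7 tested were higher in prefrontal cortex, 6 past 2-fold, with a median of -2.41 and a summed level of 158 to 851 CPM in hypothalamus against 369 to 1688 CPM in prefrontal cortex. Col1a1 (-3.02 ± 0.23, and -2.16 in CIE mice), a fibrillar collagen, Ogn, osteoglycin (-2.90 ± 0.24), and Igfbp2 (-2.79 ± 0.14) led. Endothelial genes differed little (8 of 12 higher in prefrontal cortex, median -0.20), as did those of pericytes and smooth muscle (5 of 7, median -0.38), beside 33.3% of all genes called on that side. Blood genes were higher in prefrontal cortex in 4 of 5 tested, with a summed level of 9.51 to 450 CPM against 12.5 to 1061 CPM, and Hba-a1 and Hba-a2 were listed at 0. S100a8 and S100a9 differed by -2.255 and -1.943. In CIE mice they differed by -1.01 and -0.62, where S100a9 did not pass (adjusted p = 0.124). The part of meninges or blood left on the cortical punch was not tested.

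**Figure D5:**
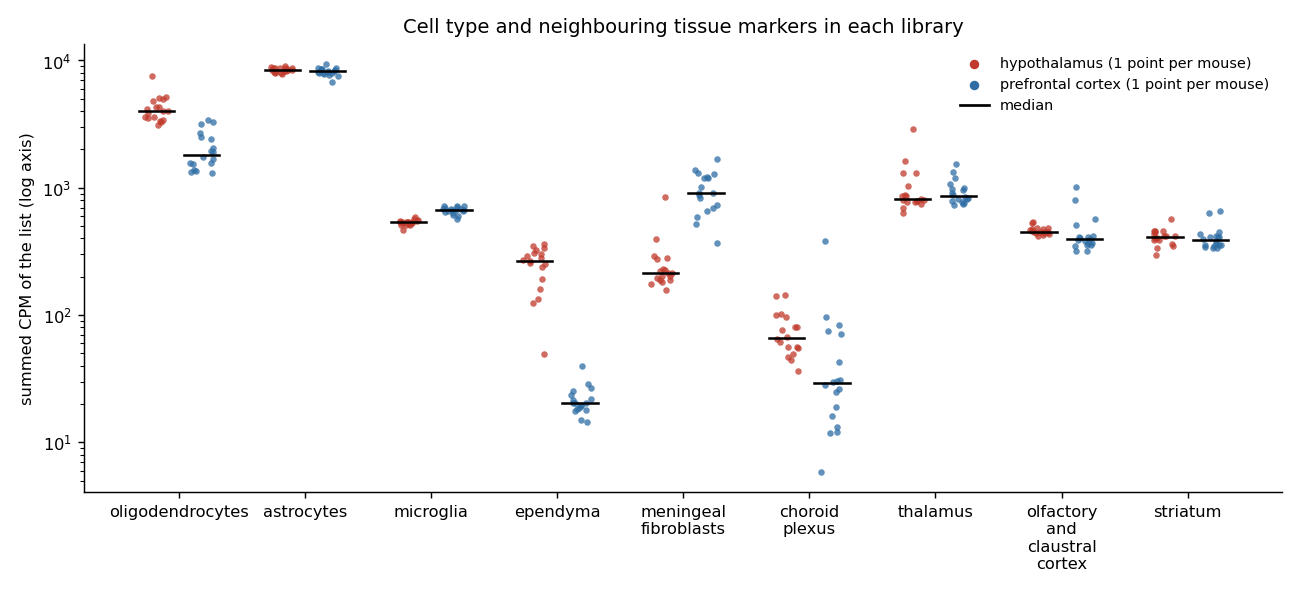
Summed CPM (log axis) of the marker lists of 5 cell types, choroid plexus and 3 neighbouring tissues in each hypothalamus library (red) and prefrontal cortex library (blue) of the 18 Air mice, with a bar at the median. Ependyma is apart with 49.7 to 364 against 14.4 to 39.9 CPM, and oligodendrocytes and meningeal fibroblasts overlap with shifted medians. The sums of astrocyte genes lie at like levels, with members going both ways. Single libraries stand out for thalamus, olfactory and choroid plexus markers. The highest choroid plexus sum, in the prefrontal cortex of mouse 28, is mostly Ttr, which is also in the liver list.

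Of the tanycyte list, named for the glia of the third ventricle floor, 9 genes were tested, of which 1 was higher in hypothalamus (Tgfb2, 0.49 ± 0.06), 4 were higher in prefrontal cortex and 4 did not pass, beside 34.8% and 33.3% of all genes tested. Of those higher in cortex 3 were past 2-fold, among them Crym, which binds thyroid hormone in the cytosol (9.21 against 266 CPM at the median, -4.59 ± 0.20), and Dio2, which activates it (6.95 against 75.5 CPM, -3.20 ± 0.12). Thrb, a thyroid hormone receptor from the nuclear receptor list, went the same way (44.5 against 151 CPM, -1.61 ± 0.11), as did Thra (-0.55 ± 0.03). Rax and Gpr50, both counted mostly in hypothalamus (108 against 8 and 592 against 26), did not pass the filter, nor did Fndc3c1 and Adm. In the fit without it 2 of these 4 genes were higher in hypothalamus and 1 in prefrontal cortex, where 17.0 and 16.7% of genes were called on each side.

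The region differences were then compared with the treatment and sex of the mice. In CIE mice, 18 mice with both regions fitted alike, 1145 of 12922 genes (8.86%) passed the 2-fold test. Of the Air mice's 1143, 1117 were tested there, 1116 of which passed an adjusted p under 0.05 in the same direction and 0 in the opposite one. Both fits shared 1022 genes past 2-fold in the same direction, 89.4% of the Air list and 89.3% of the CIE list. The 2 sets of animals share no library. The difference between Air and CIE was tested itself as a treatment-by-region term: 0 of 12885 genes passed (edgeR), 478 (3.71%) had an unadjusted p under 0.05, and DESeq2 also called 0.

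A sex-by-region term passed for 5 of 12729 genes (0.0393%; 678 genes, 5.33%, had an unadjusted p under 0.05), each at an adjusted p of 0.0454. DESeq2 called 4. The term, female minus male, was -2.03 ± 0.37 for Slc17a7, whose region difference was -6.80 in females and -4.76 in males. The hypothalamus held 1.52, 4.17 and 9.34 CPM in females and 9.80, 17.4 and 53.1 CPM in males, which do not overlap, and prefrontal cortex was at 584 and 565 CPM at the median. The 5 mice high in thalamus markers had the highest hypothalamic Slc17a7 of their sex, male mice 12, 14 and 06 (53.1, 30.4 and 29.3 CPM) and female mice 29 and 40 (9.34 and 7.31 CPM). Without them the levels were 1.52 to 5.72 CPM in females and 9.80 to 21.2 CPM in males, and the term of Slc17a7 was -2.20 ± 0.23 (adjusted p = 0.000183). For Baiap3, a regulator of dense-core vesicle traffic that had 493 CPM in hypothalamus and 20.2 CPM in prefrontal cortex at the median (4.67 ± 0.11), the difference was larger in females by 0.84 ± 0.15, with 13.4 CPM in female and 23.5 CPM in male prefrontal cortex. Sntg1 (0.58 ± 0.10) and Il1rapl2 (1.01 ± 0.18) also passed, and so did Ddx3y (-2.29 ± 0.40), which is Y-linked. Ddx3y had 10 counts over the 8 female hypothalamus libraries, so its region difference in females cannot be measured and its term is no difference between the sexes in region. The calls of this term depended on which mice were used. Without the 4 female mice with few ERCC reads 0 genes passed in edgeR (685 had an unadjusted p under 0.05, and DESeq2 was not run), and the term of Slc17a7 was -1.43 ± 0.44 and that of Baiap3 0.69 ± 0.17, while those of Sntg1 (0.57 ± 0.14) and Il1rapl2 (1.08 ± 0.23) stayed near their values over all mice with larger SEs. Without the 5 mice high in thalamus markers 1 gene passed, Slc17a7, and the terms of Baiap3 (0.75 ± 0.16), Sntg1 (0.64 ± 0.12) and Il1rapl2 (1.08 ± 0.21) stayed near their values over all mice without passing. Without mouse 28 3 genes passed, Baiap3, Agt and Pmch, and the terms of Slc17a7 (-2.05 ± 0.40, adjusted p = 0.0838), Sntg1 (0.57 ± 0.11) and Il1rapl2 (1.02 ± 0.19) kept their size without passing.

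The level of the leading genes in their lower region was summed in each sex, with no test, and the ranges of the sexes overlapped. Summed over the 12 leading hypothalamic genes, prefrontal cortex held 1.04, 7.10 and 75.9 CPM in females, the highest being mouse 28 and the next mouse 40 at 50.6 CPM, and 14.4, 41.9 and 78.4 CPM in males. Summed over the 12 leading cortical genes, hypothalamus held 13.9, 21.4 and 52.8 CPM in females, again mouse 28 highest and the next mouse 40 at 27.8 CPM, and 32.4, 54.3 and 101 CPM in males, so that the ranges of the second sum overlapped through mouse 28 alone. Single genes carried much of these sums. Oxt made up 55.3 of 77.1 CPM in the prefrontal cortex of mouse 07, and Slc17a7 53.1 of 101 CPM in the hypothalamus of mouse 12. Female mice are numbered from 26 to 40 and male mice from 06 to 15, so sex and any handling order that follows the numbers cannot be told apart.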

How the data were processed

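Per the labels, libraries were made by TagSeq from total RNA of brain micropunches with ERCC spike-ins. The authors deposited raw counts per gene for each library. The submitters' processing notes name Bowtie2, SAMtools, HTSeq, limma 3.42.2 and GRCm38 (mm10), and the strand setting was not given in the sources used here. The summary rows, for reads of low alignment quality, not aligned, on no gene or ambiguous between genes (27.58 to 32.47% per library) and the ERCC rows (0.000159 to 1.22%) were left out. Of 55385 gene identifiers, 54487 matched GENCODE M21 with their version and 657 without it. The deposited log2 tables and the blood and amygdala libraries were not used here.

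Counts were filtered with filterByExpr (minimum count 10, minimum total 15), scaled by TMM and fitted by edgeR 4.0.16 (R 4.3.3) with mouse as a block, a quasi-likelihood test, glmTreat at 2-fold, a prior count of 2 and Benjamini-Hochberg adjustment at 0.05. Pairing comes from the animal: both libraries of a pair carry 1 mouse number (median correlation of deviations 0.085 within mice and -0.001 between mice). Within mice the correlation ranged from -0.046 to 0.311. In 8 of 18 mice the hypothalamus library correlated best with the prefrontal cortex library of the same mouse. Named genes were the 12 largest differences per direction with a mean of at least 10 CPM, a fixed number of members per list, and genes of the sex and treatment terms. Members and lists were chosen with earlier results of these data known. On simulated data with 200 changed genes the test recovered 178 at 1.5-fold (6 false calls among 12637 genes) and 200 at 4-fold. In the mouse libraries 68.1% of the genes tested were called. The number of false calls with so large a share of genes differing was not tested. Labelled sex matched in 36 of 36 libraries, and no 2 libraries of a group agreed within sampling noise (lowest chi-square per degree of freedom 1.41). DESeq2 1.42.0, other scalings and filters, no block, single sexes and left-out mice were alternatives. Permutations used scipy 1.17.1. Depth limits the precision for genes of a few CPM. Some genes of the lists are counted in the totals but not reported here by name.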

Additional observations from a re-analysis of the deposited data

Results flagged for a closer look

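Within each sex, 66 groups of values, 1 value per mouse, were checked for a mouse far from the others and 8 were marked, where chance alone marks about 1 in 20 groups. Female mouse 28 accounted for 5 of them. Its log2 difference of hypothalamus over prefrontal cortex was the lowest of the 8 females for Hcrt (-1.12, next 6.79), Pmch (-0.21, next 6.40) and Agt (3.24, next 5.31), and the highest for Vip (-2.12, next -4.19). Its prefrontal cortex library also had the fewest reads on genes, 1117393 against 2014647 in the next of the female prefrontal cortex libraries.

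Female mouse 27 had the highest difference for Npy (0.69, next -1.89) and for Pomc (6.52, next 1.80). Male mouse 15 had the lowest difference for Crh (-2.35, next -0.46).

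The sex-by-region term passed in edgeR for 5 genes, of which Ddx3y, with 10 counts over the female hypothalamus libraries, has no region difference that can be measured in females. The term, female minus male, was 0.84 for Baiap3, 0.58 for Sntg1, 1.01 for Il1rapl2, -2.03 for Slc17a7 and -2.29 for the Y-linked gene Ddx3y, over 18 mice and each at an adjusted p of 0.0454. With no block for mouse 2 genes passed, and without the 4 female mice with few ERCC reads 0 passed, where the terms of Sntg1 (0.60 and 0.57) and Il1rapl2 (1.05 and 1.08) stayed near their values above in both fits.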

How the results depend on the processing

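The number of genes past an adjusted p under 0.05 was 8674, and leaving out each mouse in turn gave 8432 to 8760. The number past 2-fold was 1143, and the same exercise gave 1093 to 1186. Without the replicate block that pairs the regions of a mouse the counts were 8604 and 1134, and of the named genes 2 passed without it that did not with it, Crh (0.52, adjusted p = 0.0276) and Pax6 (-0.51, adjusted p = 0.029, edgeR). With no filter on low counts, 1991 of 30881 genes passed 2-fold. The sex-by-region term passed for 2 genes without the block in place of 5, for 0 without the mice with few ERCC reads (685 at an unadjusted p under 0.05), for 1 without the mice high in thalamus markers and for 3 without mouse 28. DESeq2 called 8194 genes and 980 past 2-fold.

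Of 221 named genes tested, 5 values turned direction and passed there: Insr (0.13) and Map2 (0.12) under scaling by library size alone, Syt6 (0.60) without the mice high in olfactory bulb genes, and Ttr (-0.60) and Rarb (-0.36) in CIE mice. None of the 5 genes passed in the main comparison, other genes that did not pass in it also changed sign without passing, and the cause was not tested. Among called genes 7 lost their call under some alternative: Cpe (-0.01 to -0.22) under library size alone, in each sex alone, in CIE mice and without mouse 11, mouse 28 or the mice with few ERCC reads, Uchl1 (0.08 to 0.24) in females and without the mice high in thalamus or olfactory bulb genes, Tle4 (0.08 and 0.23) and Ramp3 (-0.46 and -0.97) in CIE mice and in males, Ramp3 also without the mice with few ERCC reads (-0.92), Sntg1 (-0.12) in females, S100a9 (-0.62) in CIE mice, and Ddx3y (0.35 and 0.25) by DESeq2 and in CIE mice. Among called genes that are named, the value moved by over 1.5-fold for 32 in females alone, 4 in males alone, 17 in CIE mice, 5 by DESeq2, 7 without the mice high in thalamus markers and 5 without those high in olfactory bulb genes. Examples are Lhx1os (5.63, and 6.31 without mouse 14), Drd2 (2.86, and 1.55 in CIE mice), Pomc (2.06, and 1.12 in CIE mice), Prlr (3.86, and 2.64 in CIE mice) and Gabrd (-3.31, and -4.60 without the mice high in thalamus markers). The alternatives that left out mouse 28, the mice with few ERCC reads, the mice high in olfactory bulb genes and the mice high in thalamus markers, and the fit to CIE mice, were chosen after seeing the data. Punches were not placed on an atlas here, and genes of a few CPM rest on few reads.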

Other observations

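Of the lists for neighbouring tissue, the pituitary list had no gene past the filter, and its summed level was at most 12.5 CPM in hypothalamus except in mouse 10, at 95.8 CPM, of which Gh made up 87.2 CPM. Over all genes tested, 34.8% were higher in hypothalamus and 33.3% in prefrontal cortex. Of 9 striatal genes tested 3 were higher in hypothalamus and 5 in prefrontal cortex. Of 9 thalamic genes tested 5 were higher in hypothalamus and 2 in prefrontal cortex, and their summed level reached 2914 CPM in 1 hypothalamus library against a median of 811 CPM. Of 4 hippocampal genes tested 2 were higher in hypothalamus and 1 in prefrontal cortex.

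Of 15 cortical interneuron markers tested, 8 were higher in prefrontal cortex, 4 past 2-fold (Vip, Cck, Npy and Ndnf), and 5 in hypothalamus, 3 past 2-fold (Chodl, Calb2 and Tac1), with a median of -0.54. Ndnf had 7.21 against 21.8 CPM at the median (-1.91 ± 0.20). Chodl, which in cortex marks a rare class of interneurons, had 12.2, 21.8 and 30.2 CPM in hypothalamus and 0.412, 1.21 and 2.32 CPM in prefrontal cortex, with no overlap (4.01 ± 0.15). Calb2, calretinin, had 478 against 70.4 CPM at the median (2.49 ± 0.29), and 3.09 without the 4 mice high in olfactory bulb genes.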
